A study of Homo sapiens with 6 samples.

Results

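The 6 genes of the ST3GAL family, ST3GAL1 to ST3GAL6, encode the enzymes that add sialic acid to galactose in the alpha-2,3 linkage. They were found through the RefSeq accession in each probe set identifier, a rule that itself reads no measured value. All 6 genes were measured, by 7 of the 1259 probe sets on the array, since ST3GAL2 has 2. The accessions were NM_003033 for ST3GAL1, NM_006927 for ST3GAL2, NM_006279 for ST3GAL3, NM_006278 for ST3GAL4, NM_003896 for ST3GAL5 and NM_006100 for ST3GAL6. The cells were HCT116, an established human colorectal cancer line that is deficient in DNA mismatch repair and therefore unstable at microsatellites. The sample titles give ACVR2 WT, read here as wild-type, with +DOX or -DOX. ACVR2 is an activin receptor gene often mutated in such tumours, and its control by doxycycline is inferred here from the titles. The source names mention TGFBR2 and AIM2 beside ACVR2, so which gene was inducible is taken from the titles. There were 3 arrays of cells given doxycycline and activin A (+DOX) and 3 of cells given activin A without doxycycline (-DOX). All 6 samples are taken here to carry the inducible construct, and all were exposed to activin A, which binds this receptor. Doxycycline in cells without the construct, and cells without activin A, were not analysed here. The effect of the drug itself therefore cannot be told apart from that of a gene it induced. Dose, duration and the number of clones are not given in the sources used here. Nor do these say whether replicates were separate cultures, so the p-values reflect variation among 6 samples that may be no more than technical.

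Sialic acid is the usual last sugar of glycans on glycoproteins and glycolipids at the cell surface. The ST3GAL enzymes work in the Golgi, where they take sialic acid from its activated form, CMP-sialic acid, and attach it to a terminal galactose. They differ in the acceptor they prefer. ST3GAL1 and ST3GAL2 act on galactose linked to GalNAc, as in the core of mucin-type O-glycans and, for ST3GAL2, in gangliosides. ST3GAL3, ST3GAL4 and ST3GAL6 act on galactose linked to GlcNAc, at the ends of N-glycans and lactosamine chains. ST3GAL5 makes the ganglioside GM3 from lactosylceramide. In colorectal cancer the family is known for the sialylated Lewis antigens, which carry an alpha-2,3-linked sialic acid beside fucose and are bound by selectins. The question for these arrays was whether expression of these genes differed between cells with and without doxycycline.

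Values are log2 expression values, so a difference of 1 means a doubling. The table has no detection calls, and how much of a dim value is background is unknown. The titles write ACVR2, which is taken here as ACVR2A, and its probe set differed by -0.26 (SE 0.16) between +DOX and -DOX (limma, adjusted p = 0.710), or by -0.08 without -DOX replicate 3. The related receptor gene ACVR2B differed by -0.52 (SE 0.23; limma, adjusted p = 0.673), or by -0.31 without that array, and the groups overlapped for both genes. Whether these probes lie in the introduced sequence is not known, so they check neither the labels nor the induction. Arrays are named by label, and whether the inducible gene was induced is not known from these values. Of 12 colon epithelium markers only MUC2, MUC13 and LGALS4 were named on the array, with mean values from 6.85 to 7.30. Of 14 markers of other cells 5 were named, the brightest being CD34 at 7.55. Summed over the 5, their values ran from 34.64 to 34.73 on the +DOX arrays and from 34.85 to 34.92 on the -DOX arrays. Taken singly, the groups overlapped for each of the 5. The colon markers summed to between 21.29 and 21.47 on the +DOX arrays and between 21.37 and 21.56 on the -DOX arrays, so these sums overlapped. The part of either set of markers in the results below was not tested. One array, replicate 3 of -DOX, correlated with the other 5 across probe sets at 0.982 to 0.991, while those 5 correlated with each other at 0.995 to 0.999. Differences of the ST3GAL genes are given with and without it.

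All 6 ST3GAL genes gave a signal above the lower quartile of every array, which lay between 6.85 and 6.89. This quartile is no detection limit. CD34, from the markers of other cells, averaged 7.55, above ST3GAL2, and the sialic acid receptor gene CD33 averaged 7.75, above ST3GAL6. Averaged over the 6 arrays, ST3GAL5 had the highest value at 8.65 ± 0.08 (SD, n = 6), at rank 404 of the 1259 probe sets. ST3GAL4 followed at 8.43 ± 0.06 and rank 448, then ST3GAL1 at 8.19 ± 0.12 and rank 498. ST3GAL3 stood at 7.99 ± 0.08 and rank 539, and ST3GAL6 at 7.67 ± 0.15 and rank 623. ST3GAL2 was last at 7.48 ± 0.13 and rank 686 by its brighter probe set, and at 7.19 ± 0.10 and rank 813 by the other. ST3GAL1, ST3GAL3, ST3GAL4 and ST3GAL5 were above the median of all 6 arrays, ST3GAL6 was above it on 3, and both ST3GAL2 probe sets were below it on all 6. Probes differ in how strongly they bind, so this is an order of signals and not of transcript numbers. The ranks, the array medians and the shares of all probe sets refer to these 1259 probe sets, with 927 named genes. They do not refer to all transcripts of the cells.

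Neighbours in this order were close. ST3GAL5 exceeded ST3GAL4 by 0.22 ± 0.14 (SD over 6 arrays), and was the higher of the pair on 5 of them. ST3GAL4 exceeded ST3GAL1 by 0.25 ± 0.16 and ST3GAL3 exceeded ST3GAL6 by 0.33 ± 0.21, each on 5 of 6 arrays. The gaps from ST3GAL1 to ST3GAL3, 0.19 ± 0.20, and from ST3GAL6 to ST3GAL2, 0.18 ± 0.25, did not exceed their spread, although ST3GAL1 was the higher of its pair on 6 of 6 arrays. Over the 5 arrays without -DOX replicate 3 these 2 gaps were 0.12 ± 0.09 and 0.09 ± 0.11 (SD, n = 5), so the first then exceeded its spread. The other 3 gaps were then 0.18 ± 0.10, 0.31 ± 0.06 and 0.41 ± 0.09, in the order given. From array to array the rank of ST3GAL5 moved between 394 and 430, whereas that of ST3GAL6 moved between 551 and 698 and that of ST3GAL2 between 636 and 785.

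Among the 20 sialyltransferase genes measured, the ST3GAL family filled places 4 to 11 by signal, with ST6GALNAC6 and ST6GALNAC3 between them. ST6GALNAC4, at 9.57 ± 0.27 (SD, n = 6), ST6GAL1, at 9.24 ± 0.28, and ST6GALNAC2, at 9.14 ± 0.18, were above all of them. The 6 ST8SIA genes, whose enzymes add sialic acid to another sialic acid, had means from 6.05 to 6.95, below every ST3GAL gene, and 5 of them were under 6.85.

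**Figure D1:**
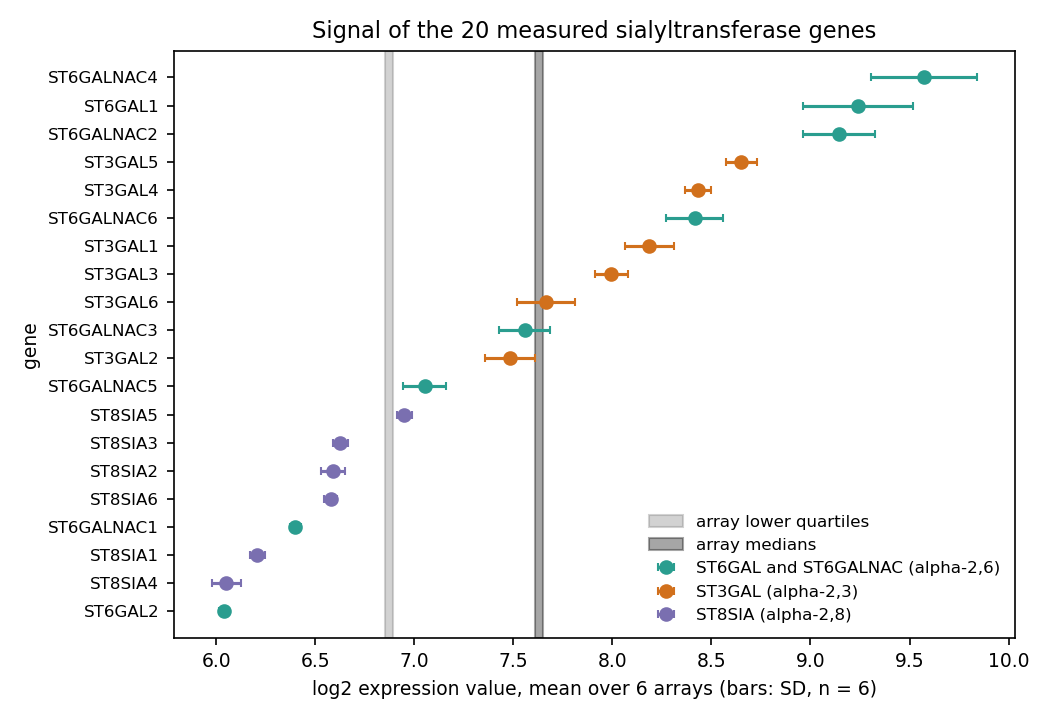
Mean log2 expression value (horizontal axis) of each of the 20 measured sialyltransferase genes (vertical axis, ordered by value), with bars for the SD over 6 arrays and colours for the linkage family. The grey bands mark the range of the array lower quartiles (6.85 to 6.89) and medians (7.61 to 7.65). The ST3GAL genes lie between 7.48 and 8.65, and all 6 ST8SIA genes lie below them.

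ST3GAL1, the main enzyme that sialylates the galactose of core 1 O-glycans, was the member with the widest gap between the groups. Its values were 8.04, 8.13 and 8.11 on +DOX replicates 1, 2 and 3, and 8.24, 8.21 and 8.39 on -DOX replicates 1, 2 and 3. All 3 -DOX arrays were above all 3 +DOX arrays, and -DOX replicate 3 was the highest. The group means were 8.09 ± 0.04 with and 8.28 ± 0.10 without doxycycline (SD, n = 3 each), 1.14-fold higher without. The difference was -0.19 (SE 0.06, 95% confidence interval -0.34 to -0.04) and did not pass the threshold (limma, adjusted p = 0.482, over all 1259 probe sets). The exact two-sided permutation p was 0.1, the smallest that 3 arrays against 3 can give. In such bulk samples fewer cells expressing a gene and less of its RNA per cell cannot be told apart. A wider absolute difference was measured for 20.5% of all probe sets. Without -DOX replicate 3 the difference was -0.13, and it was negative in each of the 13 other settings tried, from -0.22 to -0.13. A filter, a replicate block or another variance prior cannot change a difference. With the groups apart, leaving out 1 array, weighting arrays or averaging its single probe set cannot turn the sign either. Only centring arrays on their medians (-0.17) and a further quantile normalization (-0.16) could have turned it. In the other settings its sign was fixed in advance.

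ST3GAL2, which shares the core 1 acceptor and also acts on gangliosides, was read by 2 probe sets that can respond to different transcripts or, for the one with the suffix x in Affymetrix's naming, to related sequences. The brighter of them, the one with that suffix, gave 7.56, 7.59 and 7.49 on the +DOX arrays and 7.55, 7.47 and 7.24 on the -DOX arrays, in the order of replicates. The groups overlapped, and -DOX replicate 3 stood below the other 5 arrays. The difference was 0.13 (SE 0.09; limma, adjusted p = 0.710), and 0.04 without that array. The dimmer probe set gave 7.17, 7.18 and 7.31 with doxycycline and 7.25, 7.18 and 7.01 without. Again -DOX replicate 3 was the lowest, and the difference was 0.07 (SE 0.08; limma, adjusted p = 0.742), or 0.0053 without that array. With doxycycline the probe sets disagreed on the order of arrays: replicate 3 was the highest in the dimmer and the lowest in the brighter one.

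ST3GAL3, which prefers galactose of type 1 chains, the backbone of sialyl Lewis a, gave 8.02, 7.99 and 8.08 with doxycycline and 8.03, 8.02 and 7.83 without. -DOX replicate 3 was the lowest, and the other 5 arrays lay between 7.99 and 8.08. The difference was 0.07 (SE 0.06; limma, adjusted p = 0.730) and came to 0.0061 without that array.

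ST3GAL4, which acts on type 2 lactosamine and contributes to sialyl Lewis x, had the narrowest gap between groups. It gave 8.41, 8.44 and 8.46 with doxycycline and 8.45, 8.52 and 8.32 without. The +DOX arrays lay inside the range of the -DOX arrays, whose replicate 2 was the highest and replicate 3 the lowest. The difference was 0.0064 (SE 0.06, 95% confidence interval -0.14 to 0.15; limma, adjusted p = 0.986). It turned to -0.05 without -DOX replicate 3. An absolute difference wider than that of ST3GAL4 was measured for 92.2% of all probe sets.

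ST3GAL6, an enzyme of type 2 chains like ST3GAL4, varied most over the 6 arrays. Its values were 7.61, 7.60 and 7.73 with doxycycline and 7.70, 7.46 and 7.89 without. The -DOX arrays enclosed the +DOX arrays, with replicate 3 at the top and replicate 2 at the bottom. The difference of -0.04 (SE 0.12, 95% confidence interval -0.33 to 0.25; limma, adjusted p = 0.926) became 0.06 without -DOX replicate 3 and -0.15 without -DOX replicate 2. Its interval was the widest of the 7 probe sets.

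ST3GAL5, the GM3 synthase, had the highest signal of the family and nearly the same mean in both groups. It gave 8.66, 8.61 and 8.67 with doxycycline and 8.70, 8.52 and 8.74 without. As for ST3GAL6, -DOX replicate 3 was the highest array and -DOX replicate 2 the lowest. The difference was -0.0084 (SE 0.07, 95% confidence interval -0.18 to 0.16; limma, adjusted p = 0.982). The sign has no standing, since it was positive when arrays were centred on their medians (0.01), when they were quantile normalized again (0.03) and without -DOX replicate 3 (0.04).

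**Figure D2:**
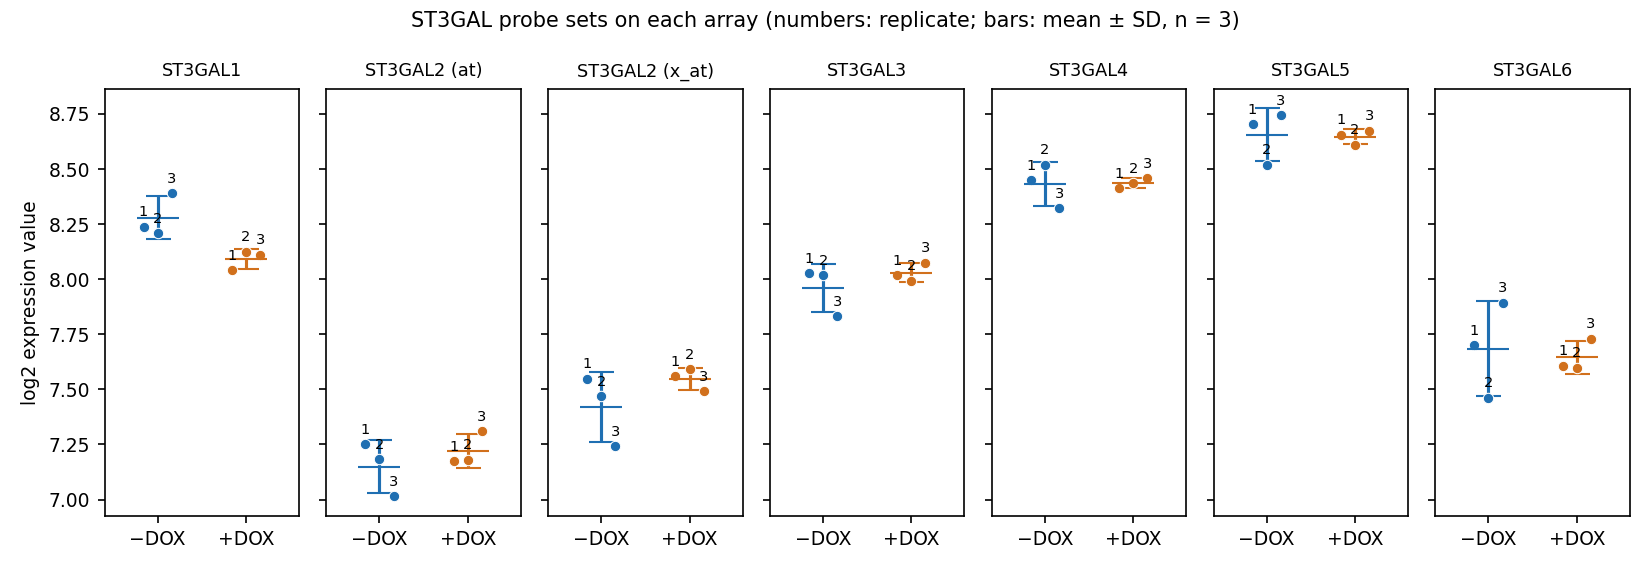
Log2 expression value (vertical axis) of the 7 ST3GAL probe sets on each array, by group (horizontal axis: -DOX in blue, +DOX in orange). Points are arrays, numbered by replicate, and bars give the mean ± SD of 3 arrays. Of the 7 panels, the groups are apart only in that of ST3GAL1. The blue SD exceeds the orange one in all 7 panels, and in 4 of them without -DOX replicate 3.

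No ST3GAL probe set passed an adjusted p of 0.05 with limma, where 0 of 1259 probe sets did (0%). At an unadjusted p under 0.05 limma gave 1 of the 7, ST3GAL1, beside 7.78% of all probe sets, and 4.53% in its direction. The groups did not overlap for 1 of the 7, again ST3GAL1, beside 15.8% of all probe sets, and 8.26% counted in its direction alone. These counts are near the background and are no result about the family. By the brightest probe set of each gene, 3 genes had higher values with doxycycline and 3 had lower ones. Their median was -0.00099 beside -0.0081 over all probe sets. Without -DOX replicate 3 4 genes were higher, 2 were lower and the median was 0.02. For 5 of the 7 probe sets the difference was within 0.1 log2 units, as for 64.2% of all. The 95% confidence intervals reached from 0.14 to 0.29 log2 units to either side of the 7 differences, and are not adjusted for the number of probe sets.

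**Figure D3:**
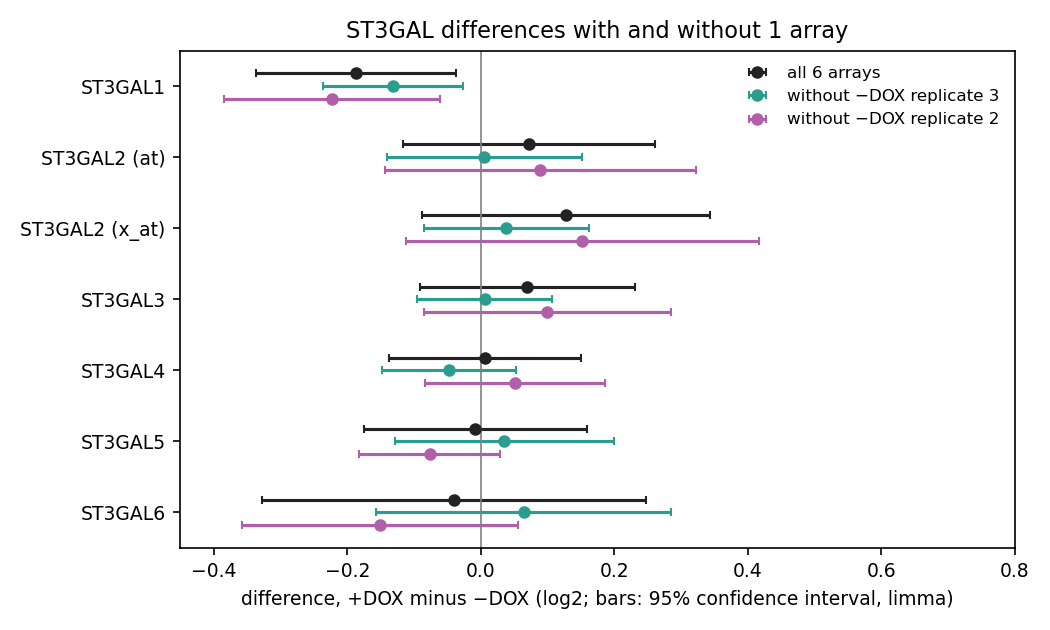
Difference between +DOX and -DOX (horizontal axis, log2 units) for the 7 ST3GAL probe sets (vertical axis), with bars for the 95% confidence interval from limma, not adjusted for the number of probe sets. Black uses all 6 arrays, green leaves out -DOX replicate 3 and purple leaves out -DOX replicate 2. ST3GAL1 stays on the negative side, from -0.22 to -0.13, a sign fixed in advance because its groups are apart. ST3GAL4, ST3GAL5 and ST3GAL6 take both signs.

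The SD over 3 arrays was larger without than with doxycycline for 7 of the 7 probe sets, which also held for 77.1% of all probe sets. With -DOX replicate 3 left out, so that the -DOX SD rests on 2 arrays, it was larger for 4 of the 7, beside 57% of all. ST3GAL1, ST3GAL3 and the dimmer ST3GAL2 probe set then had the smaller SD without doxycycline, ST3GAL1 at 0.02 against 0.04. For ST3GAL4 the SD was 0.10 without and 0.02 with doxycycline over all 6 arrays, and 0.05 without it when that array was left out. For ST3GAL6 the values were 0.22, 0.07 and 0.17. -DOX replicate 3 was the highest or the lowest of the 6 arrays for 7 of the 7, beside 61.6% of all probe sets. It lay above the 6-array mean for ST3GAL6 (by 0.23), ST3GAL1 (by 0.21) and ST3GAL5 (by 0.09). It lay below the mean for ST3GAL2, with deviations of -0.24 and -0.17 in the brighter and dimmer probe set, for ST3GAL3 (-0.16) and for ST3GAL4 (-0.11). For ST3GAL4, ST3GAL5 and ST3GAL6 the opposite end was held by -DOX replicate 2, as it was for 21.6% of all probe sets.

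**Figure D4:**
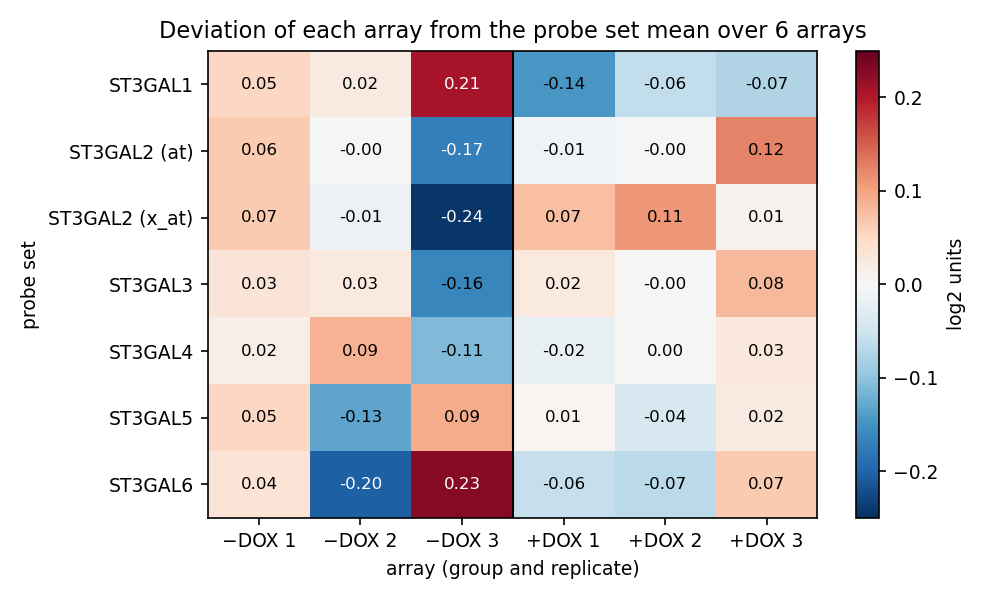
Deviation of each array (horizontal axis) from the mean over the 6 arrays, in log2 units, for the 7 ST3GAL probe sets (vertical axis), with red above and blue below the mean. -DOX replicate 3 has the strongest colour of most rows, red for ST3GAL1 (0.21), ST3GAL5 (0.09) and ST3GAL6 (0.23) and blue for the rest. The ST3GAL1 row is the one with all 3 +DOX arrays below and all 3 -DOX arrays above the mean.

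The members did not vary as one. Over the 6 arrays, which share one normalization and include the array that stood apart, ST3GAL5 and ST3GAL6 had a Pearson r of 0.93, and 0.94 over 5 arrays without -DOX replicate 3. ST3GAL2 and ST3GAL3 had an r of 0.82 over 6 arrays but -0.62 over 5, so that array set their likeness. ST3GAL3 and ST3GAL4 likewise went from 0.82 to 0.15. ST3GAL4 ran against ST3GAL5 at -0.80 over 6 arrays and -0.72 over 5, and against ST3GAL6 at -0.84 and -0.56. For ST3GAL1 and ST3GAL2, which use the same O-glycan acceptor, r was -0.83 over 6 arrays and -0.32 over 5. These are descriptions of 6 arrays, with no test.

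The differences between groups were also set against each other within arrays, where a shift shared by all probe sets of an array cancels. ST3GAL1 minus ST3GAL2 was 0.48, 0.53 and 0.62 on the +DOX arrays and 0.69, 0.74 and 1.15 on the -DOX arrays, and the groups did not overlap. ST3GAL1 was also lower with doxycycline relative to ST3GAL3 by a change of -0.26, to ST3GAL4 by -0.19, to ST3GAL5 by -0.18 and to ST3GAL6 by -0.15. The groups were apart for 4 of the 15 pairs of members, all of them with ST3GAL1, but for ST3GAL1 and ST3GAL4 only in the fourth decimal, at -0.3104 and -0.3102. All 4 contain the separation of ST3GAL1 itself, so they are not separate results, and the groups were apart for 19.7% of all pairs of named genes on the array. None of the 15 passed: the smallest exact permutation p was 0.1, the limit of this design, and 0.375 after Benjamini-Hochberg adjustment over the pairs. Without -DOX replicate 3 the change of ST3GAL1 against ST3GAL2 was -0.17, against ST3GAL3 -0.14, against ST3GAL4 -0.08, against ST3GAL5 -0.17 and against ST3GAL6 -0.20. Among the 10 pairs without ST3GAL1 the changes lay between 0.01 and 0.17 in size, and the groups overlapped in each.

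**Figure D5:**
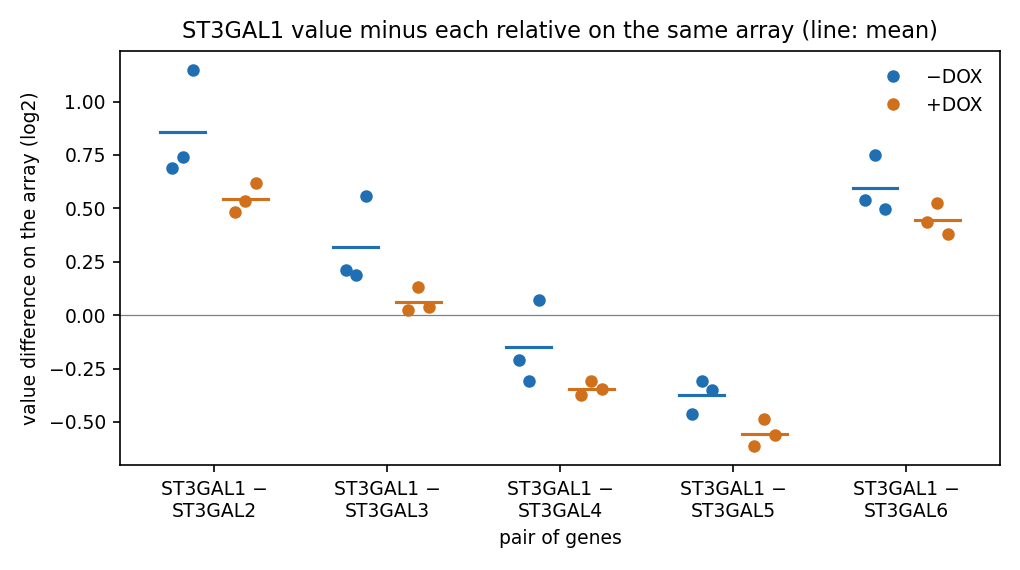
Value of ST3GAL1 minus that of each other family gene on the same array (vertical axis, log2 units), for the 5 pairs (horizontal axis), with -DOX arrays in blue, +DOX arrays in orange and lines for the means. The orange means lie below the blue ones in all 5 pairs. The groups overlap for ST3GAL6, and for ST3GAL4 they nearly touch.

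The genes whose values ran most like each member over the 6 arrays, among 926 others, were found by Pearson correlation. For ST3GAL1 they were OVGP1, the oviductal glycoprotein (r = 0.99), and FUT3, the Lewis fucosyltransferase (0.97). For ST3GAL2 they were the ribosomal protein gene RPL38 (0.996) and CLEC2B, a C-type lectin gene (0.98), and for ST3GAL3 the sulphotransferase gene CHST7 (0.99) and RPL8 (0.99), also of the ribosome. For ST3GAL4 they were the chemokine gene CXCL1 (0.99) and the chemokine receptor gene CCR7 (0.98). For ST3GAL5 they were B4GALT4, a galactosyltransferase gene (0.99), and GCNT1, the core 2 O-glycan enzyme (0.98). For ST3GAL6 they were ACVR1, a type I activin and BMP receptor gene (0.996), and SLC35F2, a transporter-family gene (0.98). Without -DOX replicate 3 only ACVR1 was among the leading pair of its member again, with r = 0.996. These are leading values out of 926, over 6 arrays, and are given with no test.

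Of the genes that supply CMP-sialic acid, the donor for all 6 enzymes, 4 of 5 were measured and 0 passed in either direction. NANS, the sialic acid synthase, gave 10.63, 10.67 and 10.69 with doxycycline and 10.45, 10.37 and 9.81 without, in the order of replicates. Those groups were apart, as for 15.8% of all probe sets, at a difference of 0.45 (SE 0.17; limma, adjusted p = 0.590), and 0.25 without -DOX replicate 3. The differences were 0.17 (SE 0.22) for GNE, which begins sialic acid synthesis, 0.08 (SE 0.07) for CMAS, which activates it, and -0.04 (SE 0.11) for SLC35A1, which carries it into the Golgi. GNE was at -0.08 and SLC35A1 at 0.03 without -DOX replicate 3, so neither direction held. On the removal side 7 of 8 genes were measured and 0 passed, with 4 higher and 3 lower, or 3 higher and 4 lower without -DOX replicate 3. The genes with the highest signal there were CTSA, the protective protein of the lysosomal sialidase, and SLC17A5, the lysosomal sialic acid exporter. CTSA was at a difference of 0.05 (-0.02 without -DOX replicate 3). SLC17A5 was at 0.60 (0.29 without -DOX replicate 3), and its groups were apart as well.

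ST3GAL1 and ST3GAL2 act on the core 1 O-glycan, and 6 of 7 genes that make it, extend it or build a competing core were measured, with 4 higher, 2 lower and 0 past the threshold. C1GALT1C1, the chaperone of the core 1 enzyme, gave 7.80, 7.79 and 7.80 with doxycycline and 7.59, 7.65 and 7.39 without. Its groups were apart, as for 15.8% of all probe sets, at a difference of 0.25 (SE 0.07; limma, adjusted p = 0.477), opposite in direction to ST3GAL1. C1GALT1, the core 1 enzyme itself, was at 0.18 (SE 0.09) with overlapping groups. GCNT1 and GCNT3, which branch core 1 into core 2, were at 0.0057 and -0.07, and the chain-extending B3GNT3 and core 3 enzyme B3GNT6 at 0.04 and -0.08. GCNT1 was at 0.09, B3GNT3 at 0.0023 and B3GNT6 at -0.14 without -DOX replicate 3. GAL3ST4, which places a sulphate on the galactose that ST3GAL1 would sialylate, gave 7.94, 7.96 and 8.04 with doxycycline and 8.49, 8.34 and 8.39 without. Its groups were apart too, at a difference of -0.42 (SE 0.05). No probe set of the array went below its adjusted p (limma, adjusted p = 0.158). Of the 9 genes in that list of other galactose caps 8 were measured, with 4 higher, 4 lower and 0 past the threshold. Without -DOX replicate 3 the counts were 3 higher and 5 lower. FUT1, an alpha-1,2 fucosyltransferase with the highest signal of the list, was at -0.18.

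Around ST3GAL5 7 of 7 genes of glycolipid synthesis were measured, with 4 higher, 3 lower and 0 past the threshold, and 2 higher and 5 lower without -DOX replicate 3. The differences were 0.16 (SE 0.23) for UGCG, which makes glucosylceramide, and -0.09 (SE 0.09) and -0.31 (SE 0.26) for B4GALT5 and B4GALT6, which turn it into the lactosylceramide that ST3GAL5 uses. B4GALT5 was at -0.02, B4GALT6 at -0.01 and UGCG at 0.35 without -DOX replicate 3. B4GALNT1 and B3GALT4, which lengthen gangliosides, were at 0.05 and 0.04. A4GALT and B3GNT5, which take lactosylceramide to other glycolipids, were at 0.0099 and -0.11. Without -DOX replicate 3, B3GNT5 was at 0.14 and the other three, B4GALNT1, B3GALT4 and A4GALT, were below 0.

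The ST3GAL products with lactosamine ends become sialyl Lewis antigens through fucosyltransferases, of which 6 of 6 were measured, with 1 higher, 5 lower and 0 past the threshold. Without -DOX replicate 3 the counts were 0 higher and 6 lower. FUT3, which makes sialyl Lewis a, gave 7.15, 7.20 and 7.18 with doxycycline and 7.23, 7.25 and 7.31 without. Its groups were apart, as for 15.8% of all probe sets, at a difference of -0.08 (SE 0.04; limma, adjusted p = 0.675). FUT4 was at -0.27 (SE 0.12), or -0.15 without -DOX replicate 3, and FUT5, FUT6, FUT7 and FUT9 lay between -0.05 and 0.02. Of the galactosyltransferases that make lactosamine ends 7 of 7 were measured, with 3 higher, 4 lower and 0 past the threshold. Those with the highest signal, B4GALT3 and B4GALT2, were at 0.11 and -0.03, and at 0.02 and -0.20 without -DOX replicate 3.

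Among the other sialyltransferases, 8 alpha-2,6 genes had 3 higher and 5 lower and 6 ST8SIA genes 3 higher and 3 lower, with 0 past the threshold in either. ST6GALNAC4 was at 0.26 (SE 0.18) and ST6GAL1, which caps the same lactosamine ends as ST3GAL4 with an alpha-2,6 linkage, at -0.31 (SE 0.17). They were at 0.07 and -0.17 without -DOX replicate 3. ST3GAL1 was not the only sialyltransferase gene with groups apart. They were also apart for ST6GALNAC2 (0.28), ST6GALNAC5 (0.17) and ST8SIA1 (-0.06), beside 15.8% of all probe sets. Of all 20, ST3GAL1 had the difference of rank 4 in size, ST3GAL5 that of rank 19 and ST3GAL4 that of rank 20. ST8SIA5 and ST8SIA3 were at -0.02 and 0.03. Of 14 selectins and Siglecs, the receptors that read sialylated glycans, 6 had higher and 8 had lower values, with 0 past the threshold, and CD33 and SIGLEC10, with the highest signal of that list, were at 0.03 and -0.06, and at -0.02 and -0.03 without -DOX replicate 3. None of the pathway lists held a gene past the threshold, and their medians lay between -0.03 and 0.13 beside -0.0081 over all probe sets. Leaving ST6GALNAC2, ST6GALNAC5 and ST8SIA1 aside, the sign of 13 of the 35 pathway genes given here turned when 1 of the arrays was left out.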

How the data were processed

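The authors deposited 1 table of log2 expression values for 6 single-colour arrays, for which the submitters' processing notes name RMA without a version. RMA corrects background, quantile normalizes arrays and summarises the probes of a probe set. Of 1259 probe sets, 1043 were named through RefSeq accessions without versions and a GRCh38.p14 gene table. The array table names no genome build, so no coordinates are given. The main comparison used lmFit and eBayes of limma 3.58.1 (R 4.3.3, two-sided, no block, no filter), with Benjamini-Hochberg adjustment over 1259 probe sets and a threshold of 0.05. The fit was tested on simulated data with normal noise of the same spread in both groups. These had no array that stood apart, so the test does not cover that feature of the real arrays. The changes added to them were wider than any ST3GAL difference, so it does not cover changes of that size either. A gene is represented by its probe set with the highest mean over 6 arrays. Exact two-sided permutation tests of 3 against 3 arrays were added. No pair of arrays held identical values.

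Named genes are the members, ACVR2A, all measured genes of 4 lists (donor supply, core 1, glycolipids, sialyl Lewis fucosyltransferases), the 2 with the highest signal from each other list, and the 2 most correlated with each member. MUC13 was named as the third measured marker of a list, and ACVR2B after its value was seen. The differences of ST6GALNAC2, ST6GALNAC5 and ST8SIA1 are given because their groups were apart. The members and lists were chosen with earlier results of these data known. Scaling, filter, block, weights, variance prior, probe set choice and each array were varied. The number of arrays limits the precision.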

Additional observations from a re-analysis of the deposited data

How the results depend on the processing

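No ST3GAL probe set passed the threshold under any of the alternatives, and ST3GAL1, ST3GAL2 and ST3GAL3 had the same direction in each of the 13. The filter, the block and the variance prior cannot change a difference, so these settings did not test the direction. Averaging probe sets cannot change it for a gene with a single probe set. For ST3GAL1, whose groups were apart, leaving out 1 array or weighting arrays could not turn the sign either. The smallest adjusted p of a ST3GAL gene over these settings was 0.142, for ST3GAL1 (limma). Leaving out 1 array at a time moved ST3GAL1 between -0.22 and -0.13, ST3GAL2 between 0.04 and 0.19 and ST3GAL3 between 0.0061 and 0.10. ST3GAL4 moved between -0.048 and 0.051, ST3GAL5 between -0.077 and 0.036 and ST3GAL6 between -0.15 and 0.065, so these 3 have no settled direction. With arrays centred on their medians the signs of ST3GAL5 (0.012), FUT5 (0.0067) and FUT6 (0.0090) turned. A further quantile normalization turned ST3GAL5 (0.032), FUT6 (0.013) and B4GALT2 (0.000725). Array weights, whose estimation stopped before full convergence, turned ST3GAL4 (-0.021), the dimmer ST3GAL2 probe set (-0.019), CMAS (-0.020), GCNT1 (-0.010), B3GNT3 (-0.0075) and B3GALT4 (-0.021). They also gave 1 probe set past the threshold in all, GAL3ST4.

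Leaving out 1 array at a time turned the sign of 13 of the 35 pathway genes, which do not include ST6GALNAC2, ST6GALNAC5 and ST8SIA1. Their ranges were -0.079 to 0.35 for GNE, -0.15 to 0.034 for SLC35A1, -0.024 to 0.13 for CTSA, -0.11 to 0.094 for GCNT1 and -0.20 to 0.085 for B4GALT2. They were -0.0089 to 0.099 for B4GALNT1, -0.0061 to 0.073 for B3GALT4, -0.049 to 0.072 for A4GALT and -0.37 to 0.14 for B3GNT5. They were -0.047 to 0.0059 for FUT5, -0.042 to 0.016 for FUT6, -0.0039 to 0.061 for FUT7 and -0.020 to 0.074 for CD33. Of the changes of 1 member against another, 6 turned, an alternative chosen after seeing the data, as were the spreads, gaps and list counts without -DOX replicate 3. ST3GAL2 against ST3GAL6 ran from -0.026 to 0.30, ST3GAL3 against ST3GAL5 from -0.030 to 0.18 and against ST3GAL6 from -0.059 to 0.25. ST3GAL4 against ST3GAL5 ran from -0.083 to 0.13 and against ST3GAL6 from -0.11 to 0.20, and ST3GAL5 against ST3GAL6 from -0.029 to 0.075. The cause was not tested.

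Deviations of same-numbered arrays from their group means correlated at -0.15, -0.04 and -0.16 for replicates 1, 2 and 3. Arrays of different number were not compared, so these values do not settle whether the numbers pair the samples. With the replicate block, ST3GAL1 was at -0.19 with 0 probe sets past the threshold, and no call changed. The number at an unadjusted p under 0.05 went from 98 to 81.

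Ranked among 927 named genes, ST3GAL5 stood at 37.4% from the top, ST3GAL4 at 41.3%, ST3GAL1 at 44.6% and ST3GAL3 at 47.4%, compared with 32.1%, 35.6%, 39.6% and 42.8% among all probe sets. ST3GAL6 stood at 53.2% compared with 49.5%, and ST3GAL2, by its brighter probe set, at 58.4% compared with 54.5%. The probe sets left out of that ranking had a median value of 7.27 and those kept one of 7.80.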
